A study of Caenorhabditis elegans with 2 samples.

Results

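Binding of an eGFP-tagged nuclear hormone receptor, NHR-21, in L2 larvae of Caenorhabditis elegans was examined at 6 genes that encode E-box-binding proteins with a basic helix-loop-helix (bHLH) domain. They were mml-1, mxl-2, mdl-1, mxl-1, mxl-3 and hlh-30, chosen by name as the worm relatives of the Myc, Mondo and TFEB factors, and all 6 were found among 19973 nuclear protein-coding genes of the Ensembl WBcel235 annotation. Chromatin immunoprecipitation and sequencing had been done on whole animals of mixed sex from strain OP361, which has the unc-119(tm4063) mutation and the wgIs361 insertion, in 2 biological replicates of 1 group. The antibody label names nhr-21, while the sample description names eGFP-nhr-21. The tagged copy is a transgene, and no untagged or control sample was analysed here, so no difference between conditions could be tested and no p-value is given. In whole animals, binding in a few cells cannot be told apart from weaker binding in many.

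The proteins work as pairs on the E-box, the palindrome CACGTG. MML-1, the worm Mondo protein, pairs with MXL-2, the counterpart of mammalian Mlx, and MDL-1, a Mad-like protein, pairs with MXL-1, the worm Max. C. elegans has no clear Myc gene of its own, so these Max-like partners form the worm's Myc and Mondo network, which is known for its role in metabolism and lifespan. HLH-30 is the worm TFEB, which activates autophagy and lysosomal genes on fasting, and MXL-3 is a Max-like repressor of lysosomal lipase genes in fed animals. A nuclear hormone receptor binds other sequences, and the question here was where tagged NHR-21 lay at the genes for these factors.

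The deposited lists hold an interval, a summit and the authors' signal value for each peak. The pooled list and each replicate list held 30000 candidates, and the 3647 optimal peaks, those past the authors' reproducibility threshold, were the 3647 pooled candidates with the highest value. The value was used only within its list, where rank 1 is the strongest. Across the pooled list it had a median of 17.4 and a maximum of 1244, and the weakest optimal peak had 52.2. Positions are given in ce11, in bp from an annotated 5′ end, with negative numbers upstream. Trans-splicing removes the first bases of many worm transcripts, and true starts of transcription may therefore lie upstream of the annotated ends.

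Optimal peaks lay at 4 of the 6 genes and were many at 3 of them. In the gene body and the 5 kb upstream, mdl-1 had 5 optimal summits, mxl-3 and hlh-30 had 4 each, mml-1 had 2, and mxl-1 and mxl-2 had 0. The same kind of window held an optimal summit in 23.6% of all protein-coding genes (28.5% on the X chromosome and 22.9% on autosomes). Windows with 4 or more optimal summits were found for 3 of the 6 genes, against 0.746% of all protein-coding genes and 1.17% of those on X, where mdl-1 and mxl-3 lie. In the promoter window, from 1000 bp upstream to 250 bp downstream of any annotated 5′ end, 4 of the 6 genes had an optimal summit, against 11.6% of all genes. The windows of the 6 genes had a median length of 6.37 kb, against 7.03 kb over all genes, while that of hlh-30 was 25.2 kb. Counting candidates of any strength with their summit in the window, the 6 genes had 49 in the pooled list, 56 in replicate 1 and 50 in replicate 2. Of these, hlh-30 had 22, 23 and 21, mml-1 had 11, 13 and 13, mdl-1 had 6, 8 and 8, mxl-3 had 5, 6 and 5, mxl-2 had 3, 4 and 2, and mxl-1 had 2, 2 and 1. Almost every pooled candidate at mdl-1 and mxl-3 was therefore an optimal peak. At hlh-30 and mml-1 most were not, with 4 of 22 and 2 of 11 optimal. Most candidates of the whole pooled list were not optimal either, with 3647 of 30000 optimal. Genes differ in window length, neighbouring windows overlap, and the 6 genes were chosen with earlier results of these data known. These shares are therefore descriptions.

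**Figure D1:**
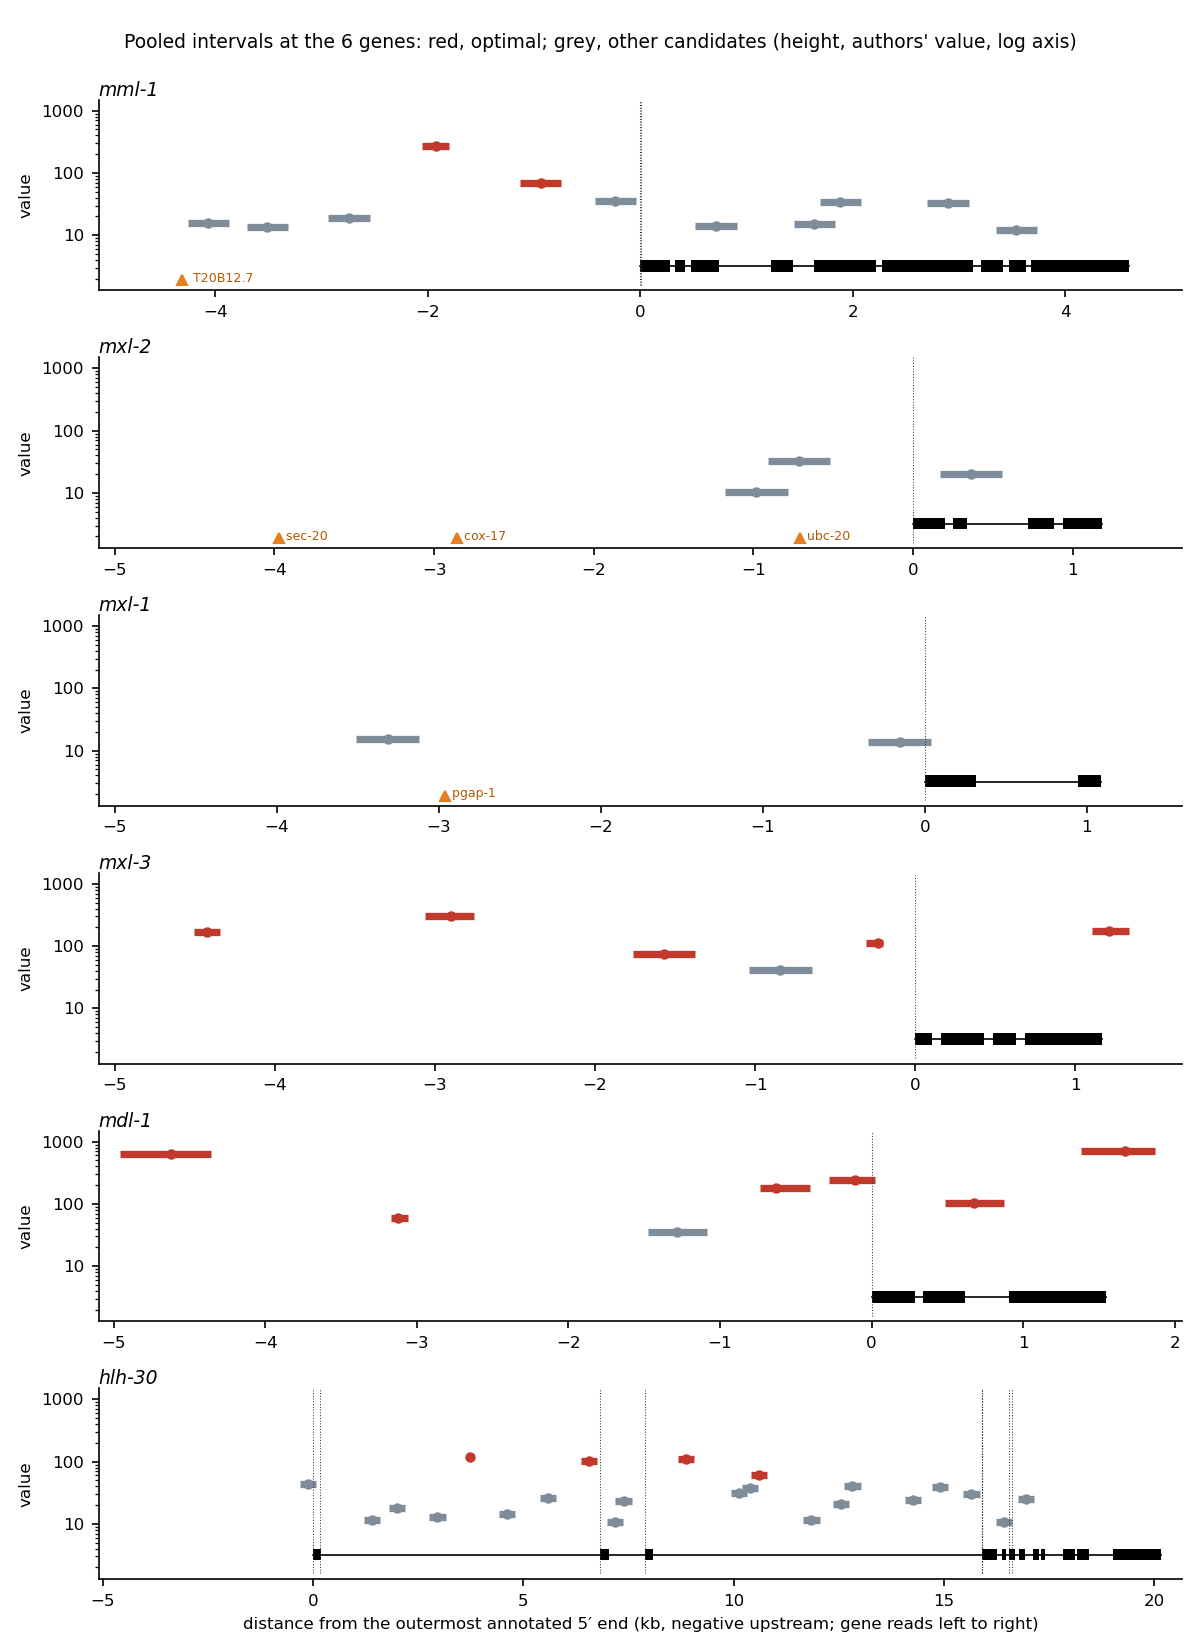
Pooled intervals at the 6 genes, each bar spanning an interval at the height of the authors' value (log axis) with a dot at its summit, against the distance in kb from the outermost annotated 5′ end. Red intervals are optimal peaks and grey ones other candidates, black boxes are exons of all transcripts, dotted lines are annotated 5′ ends and triangles are 5′ ends of other protein-coding genes; mdl-1, mxl-3 and hlh-30 had 5, 4 and 4 red summits in their windows, and mxl-1 and mxl-2 had 0.

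The sequences around 7 optimal summits are shown first because they hold the E-box itself, the site of the proteins these genes encode. Each is the 101 bases centred on the summit, read on the strand of the gene, with CACGTG in capitals. They lie at chrIII:7376602-7376702 (minus strand) for mml-1, at chrX:6737677-6737777, chrX:6741672-6741772, chrX:6742193-6742293, chrX:6742979-6743079 and chrX:6743972-6744072 (plus strand) for mdl-1, and at chrIV:4026034-4026134 (minus strand) for hlh-30.
mml-1 -1921 bp: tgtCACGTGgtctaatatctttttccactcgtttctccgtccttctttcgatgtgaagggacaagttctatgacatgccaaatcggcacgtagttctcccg
mdl-1 -4624 bp: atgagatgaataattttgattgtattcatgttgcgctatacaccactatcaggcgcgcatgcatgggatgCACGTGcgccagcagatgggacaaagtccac
mdl-1 -629 bp: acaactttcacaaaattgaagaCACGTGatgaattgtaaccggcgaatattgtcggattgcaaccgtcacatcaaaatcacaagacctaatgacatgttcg
mdl-1 -108 bp: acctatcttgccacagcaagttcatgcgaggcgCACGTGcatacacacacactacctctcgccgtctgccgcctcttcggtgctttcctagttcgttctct
mdl-1 678 bp: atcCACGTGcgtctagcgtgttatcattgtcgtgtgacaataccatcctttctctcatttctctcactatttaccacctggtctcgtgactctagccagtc
mdl-1 1671 bp: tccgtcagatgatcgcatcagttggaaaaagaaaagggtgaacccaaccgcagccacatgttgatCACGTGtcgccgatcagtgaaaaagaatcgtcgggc
hlh-30 979 bp: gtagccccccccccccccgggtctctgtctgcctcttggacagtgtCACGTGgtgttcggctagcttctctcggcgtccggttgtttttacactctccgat

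Of the 15 optimal summits in the windows of the 6 genes, 6 had CACGTG within 50 bp, against 7.21% of all optimal peaks and 2.41% of the 25659 pooled candidates that overlapped no optimal peak, in windows of the same 101 bp. Those 6 were 4 summits of mdl-1 and 1 each of mml-1 and hlh-30. The summit 1671 bp downstream of the mdl-1 5′ end is not among the 15, since it lay past the end of the gene. Over whole intervals, which differ in length, 7 of the 15 held CACGTG, against 13.6% of all optimal peaks and 7.16% of the other candidates, the added one being the peak of mxl-3 at -2899 bp. With 2 bases on either side, the element nearest the summit read gtCACGTGgt at both mml-1 and hlh-30, whereas the elements of mdl-1 had other flanks, among them tgCACGTGcg and cgCACGTGca. The hlh-30 element lay closest to its summit, beginning 4 bp before it. A match of letters is a description and does not show that any protein was bound through it.

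The remaining optimal peaks had no CACGTG around the summit. Of these, the strongest peak of mxl-3, its promoter peak and the promoter peak of mml-1 are shown, because they are the main peaks of their genes that lack the element there. They lie at chrX:13353653-13353753, chrX:13350987-13351087 and chrIII:7375619-7375719, all read on the minus strand.
mxl-3 -2899 bp: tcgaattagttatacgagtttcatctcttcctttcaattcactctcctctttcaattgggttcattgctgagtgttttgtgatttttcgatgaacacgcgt
mxl-3 -233 bp: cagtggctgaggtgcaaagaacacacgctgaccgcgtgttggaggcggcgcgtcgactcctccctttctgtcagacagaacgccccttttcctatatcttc
mml-1 -938 bp: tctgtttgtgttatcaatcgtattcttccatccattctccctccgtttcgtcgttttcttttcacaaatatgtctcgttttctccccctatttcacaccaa

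The wider E-box CANNTG was within 50 bp of 8 of the 15 summits, against 42.6% of all optimal peaks and 35% of the other candidates. Over whole intervals the order turned, with CANNTG in 11 of the 15 (73.3%), against 77% of all optimal peaks and 78.8% of the other candidates. AGGTCA, a half-site of many nuclear receptors, was within 50 bp of 0 of the 15, against 3.76% of all optimal peaks and 3% of the other candidates, and in 1 of the 15 whole intervals (6.67%), that of mxl-3 at -1570 bp, against 12.4% of all optimal peaks and 10.4% of the other candidates. GAGAGA was counted on both strands. It was within 50 bp of 4 of the 15 summits (26.7%), near the 24.3% of all optimal peaks, against 9.12% of the other candidates. Those 4 were 3 summits of hlh-30 and 1 of mdl-1. Over whole intervals GAGAGA was in 6 of the 15 (40%), below the 46.9% of all optimal peaks, against 26.3% of the other candidates. The promoter peak of hlh-30 at chrIV:4028346-4028446 (minus strand) is shown with GAGAGA or its reverse complement in capitals, since it was the richest in G and C of the 15, at 67.3%, against 44.5% ± 8.21 (SD over 3647 optimal peaks).
hlh-30 -269 bp: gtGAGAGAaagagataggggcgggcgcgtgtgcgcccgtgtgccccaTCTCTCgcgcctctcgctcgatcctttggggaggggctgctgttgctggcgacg

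The Mondo gene mml-1 (chrIII:7370130-7374731, minus strand) had its strongest binding well upstream of its promoter window. Its optimal peak at -1921 bp (chrIII:7376532-7376787) had a value of 267 and rank 241, with values of 104 in replicate 1 and 173 in replicate 2, at ranks 262 and 200. The peak was intergenic, and the mml-1 5′ end was the nearest one of a protein-coding gene. A second optimal peak at -938 bp (chrIII:7375474-7375863) was weaker, with a value of 68.6 and rank 2554, and values of 28.9 and 41.6 in replicates 1 and 2. Both replicates thus placed the distal peak above the proximal one. Closest to the 5′ end, at -236 bp, the pooled list had only a candidate of value 35.8 and rank 5899, below the threshold. The other 8 candidates of the window, among them 5 in coding exons of mml-1, had values from 12.3 to 34.4.

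Its partner gene mxl-2 (chrIII:186949-188131, minus strand) had no optimal peak. The strongest of its 3 pooled candidates, at -717 bp, had a value of 32.8 and rank 6565, and its summit lay 10 bp inside ubc-20, a ubiquitin-conjugating enzyme gene that is read away from mxl-2. The replicates differed here. Replicate 2 had an interval with a value of 32.6 and rank 3539 at -707 bp, while the strongest overlapping interval of replicate 1 had a value of 8.56 and rank 18145 and a summit at -982 bp. The candidate in the intron of mxl-2, at 363 bp, had a value of 19.9 and rank 12632 in the pooled list.

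The Mad-like gene mdl-1 (chrX:6742351-6743899, plus strand) had the strongest and densest binding of the 6 in windows with 5 kb upstream. In those windows, mdl-1 owed this place to its most distal peak. Its 5 optimal summits in a window of 6.55 kb came to 0.763 per kb, a density reached or passed by 0.0701% of protein-coding genes. The strongest, at -4624 bp (chrX:6737392-6737995), had a value of 640 and rank 29, with values of 226 in replicate 1 and 413 in replicate 2. Among protein-coding genes, its summit was slightly nearer to the 5′ end of R03E9.2, at 4426 bp, than to that of mdl-1. The summit also lay 598 bp downstream of the 5′ end of R03E9.6, a noncoding gene on the same strand as mdl-1. With each summit counted only for the nearest protein-coding 5′ end, mdl-1 kept 4 summits, or 0.611 per kb, against 0.649 per kb for mxl-3. Its strongest value was then 239. In shorter windows without the distal peak mdl-1 was still the densest, at 0.845 per kb with 2 kb upstream and 1.177 with 1 kb. The gene mxl-3 had 0.632 and 0.462 there. A still stronger peak at chrX:6743736-6744220 overlapped the 3′ end of mdl-1, with its summit 123 bp past the gene, a value of 715 and rank 21, and values of 273 and 437 in replicates 1 and 2. That summit lay in an exon of the noncoding gene R03E9.10 on the opposite strand, and 250 bp upstream of R03E9.7, a noncoding gene on the same strand. Strong intervals therefore flanked mdl-1 on both sides.

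Between these, mdl-1 had 2 optimal summits in its promoter window and 1 inside the gene. The peak at -108 bp (chrX:6742071-6742375) had a value of 239 and rank 301, and values of 110 and 138 at ranks 229 and 332 in replicates 1 and 2. The peak at -629 bp (chrX:6741612-6741948) had a value of 177 and rank 535, but its values were 39.7 in replicate 1 and 154 in replicate 2, at ranks 1646 and 270. This 6.10-fold difference in rank was matched or passed by 1.24% of the 3636 optimal peaks matched in both replicate lists, whose median ratio was 1.45. Both summits lay downstream of the 5′ end of R03E9.9, a noncoding gene on the same strand, by 400 bp for the -629 bp peak and 921 bp for the -108 bp peak. Replicate 1 put the -108 bp peak above the -629 bp peak, and replicate 2 put it below. The intronic peak at 678 bp had a value of 104 and rank 1422, and the peak at -3127 bp was the weakest of the 5, with a value of 59 and rank 3113. Those 2 had values of 45.7 and 29.6 in replicate 1, and of 58.6 and 32.6 in replicate 2. Along the gene, the gaps between neighbouring summits were uneven, at 1497, 2498, 521 and 786 bp. The only other pooled candidate, at -1282 bp, had a value of 35.8.

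Its partner gene mxl-1 (chrV:11244839-11245926, plus strand) had 0 optimal peaks and 2 pooled candidates, both of low value. The candidate at -154 bp had a value of 13.6 and rank 20655, and no interval of replicate 2 overlapped it, while that of replicate 1 had a value of 11.2 and rank 11881. The candidate at -3315 bp had a value of 15.5 and rank 17502 and lay in the 3′ UTR of ima-1, an importin gene, 356 bp upstream of pgap-1. In both heterodimer pairs the Mondo or Mad gene had optimal peaks and the gene for its Max-like partner had 0. Windows of this kind held an optimal summit in 23.6% of all protein-coding genes, so most genes had 0. Among the 3647 strongest intervals of replicate 2 alone, a set with no reproducibility threshold, mxl-2 had 1, of rank 3539. The summit of that interval lay at the 5′ end of ubc-20.

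The Max-like repressor gene mxl-3 (chrX:13349639-13350804, minus strand) was bound at 4 intergenic places across its upstream 5 kb. The strongest peak, at -2899 bp (chrX:13353561-13353863), had a value of 307 and rank 172, with values of 135 and 180 at ranks 148 and 182 in replicates 1 and 2. The peak at -4425 bp (chrX:13355148-13355309) had a value of 168 and rank 591, and values of 69.7 and 92.2 in the replicates. In the promoter window, the peak at -233 bp (chrX:13351008-13351110) had a value of 111 and rank 1285, and values of 55.3 and 70.5. Its summit also lay 73 bp upstream of C49F8.5, a noncoding RNA gene read in the opposite direction. The peak at -1570 bp was the weakest, with a value of 75.7 and rank 2233, and values of 25.6 and 51.6. The peaks at -2899 and -4425 bp were thus stronger than the promoter peak in both replicates, and that at -1570 bp was weaker. No other protein-coding 5′ end lay in the window of mxl-3, and an optimal peak with a value of 173 and rank 565 straddled its 3′ end, with its summit 48 bp past the gene. Neighbouring optimal summits of mxl-3 upstream of the gene were 1337, 1329 and 1526 bp apart. The remaining pooled candidate, at -842 bp, had a value of 41.9 and rank 4795, and the replicates differed on it, with ranks of 2756 and 11842.

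The TFEB gene hlh-30 (chrIV:4014793-4034951, minus strand) had its optimal peaks inside the gene. They lay between -3092 and 2706 bp from the nearer of its middle 5′ ends. Its 13 annotated transcripts start at 10 places, which fall in an outer pair (4034951 and 4034784), 2 middle ends (4028127 and 4027063) and an inner group of 6 (4018331 to 4019044). The optimal peak at -269 bp from the 4028127 end (chrIV:4028201-4028590) was the sole one in a promoter window, with a value of 101 and rank 1474, and values of 39 and 60.4 in replicates 1 and 2. The same summit lay -1333 bp from the 4027063 end and 585 bp upstream of F35F11.4, a noncoding gene inside hlh-30. The strongest peak, with a value of 120 and rank 1115, lay -3092 bp from the 4028127 end and 3565 bp into the transcripts from 4034784 (chrIV:4031176-4031302), with values of 59.1 and 63.2 in the replicates.

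The other 2 optimal peaks of hlh-30 lay downstream of the middle 5′ ends, in introns. The peak with gtCACGTGgt, 979 bp downstream of the 4027063 end (chrIV:4025889-4026278), had a value of 109 and rank 1335, and values of 51.3 and 57.9. The peak at 2706 bp from the same end had a value of 61.2 and rank 2969, and ranks of 1727 in replicate 1 and 3694 in replicate 2. Beside the outer pair, the interval at -125 bp was the strongest candidate of the window that missed the threshold, with a value of 44.1 and rank 4478, and ranks of 3120 and 9368 in replicates 1 and 2. Around the inner ends, the candidates at -256 bp and -997 bp had values of 30.6 and 38.8 and ranks of 7106 and 5298. The 4 optimal summits came to 0.159 per kb of this long window, a density reached or passed by 9.83% of genes. The window held 18 candidates that were not optimal, with values from 10.6 to 44.1. All 4 optimal peaks of hlh-30 had lower values than the strongest peaks of mdl-1, mxl-3 and mml-1.

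Ordered by their strongest pooled interval, the genes ran mdl-1 (640), mxl-3 (307), mml-1 (267), hlh-30 (120), mxl-2 (32.8) and mxl-1 (15.5). The intervals matched to these kept the order in both replicates, at 226, 135, 104, 59.1, 8.56 and 6.31 in replicate 1 and 413, 180, 173, 63.2, 32.6 and 9.52 in replicate 2. For mxl-2 and mxl-1 the ranks of the replicates overlapped, at 18145 and 3539 for mxl-2 and 27582 and 17724 for mxl-1, so these neighbours did not differ beyond their spread. Taking instead the strongest interval of the replicate's own list, mxl-1 (11.2) was above mxl-2 (8.56) in replicate 1. The order of the first 4 depended on the window. With 2 kb upstream it was mml-1 (267), mdl-1 (239), hlh-30 (120) and mxl-3 (111), and with 1 kb it was mdl-1 (239), hlh-30 (120), mxl-3 (111) and mml-1 (68.6). With each summit given only to the nearest protein-coding 5′ end it was mxl-3 (307), mml-1 (267), mdl-1 (239) and hlh-30 (120). In the 5 kb windows, the replicates' ranks of the 4 stronger genes did not overlap between neighbours. The median of the strongest pooled value was 193 over the 6 genes, against 34.2 over the 13323 protein-coding genes with a candidate. Among genes with an optimal peak it was 287 for the 4 and 97.4 for all 4719. A value as high as the strongest one was found in the windows of 0.265% of all genes for mdl-1, 1.5% for mxl-3, 2.18% for mml-1 and 8.92% for hlh-30.

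**Figure D2:**
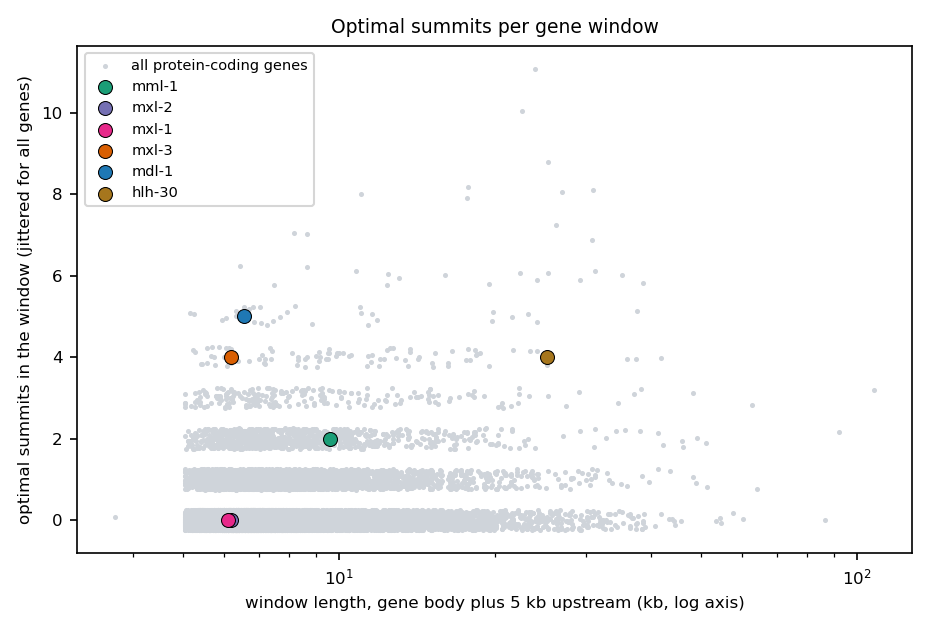
Number of optimal summits in the window of gene body and 5 kb upstream (y axis) against the length of that window in kb (x axis, log), for all 19973 protein-coding genes (grey, jittered vertically) and the 6 genes (coloured). At about the same window length, mdl-1 and mxl-3 had 5 and 4 summits and mxl-1 and mxl-2 had 0, while hlh-30 had 4 in a window of 25.2 kb.

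Both replicates held most of these peaks among their strongest intervals. Of the 15 optimal peaks in the windows, 14 matched intervals that stood among the 3647 strongest in replicate 1 and in replicate 2, against 74.8% of all optimal peaks. The exception was the hlh-30 peak at 2706 bp, which ranked 3694 in replicate 2. The pooled values rest on these same 2 replicates, and 11 of the 15 peaks were in the stronger 50% of optimal peaks. The share was not compared with that of peaks of like strength, so closer agreement between replicates was not tested. As rounded, the ratio of the ranks between replicates was at or above the median of all optimal peaks (1.45) at 7 of the 15. The mdl-1 peak at -108 bp was equal to that median. The ratio was lowest at mml-1 -938 bp, at 1.04.

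**Figure D3:**
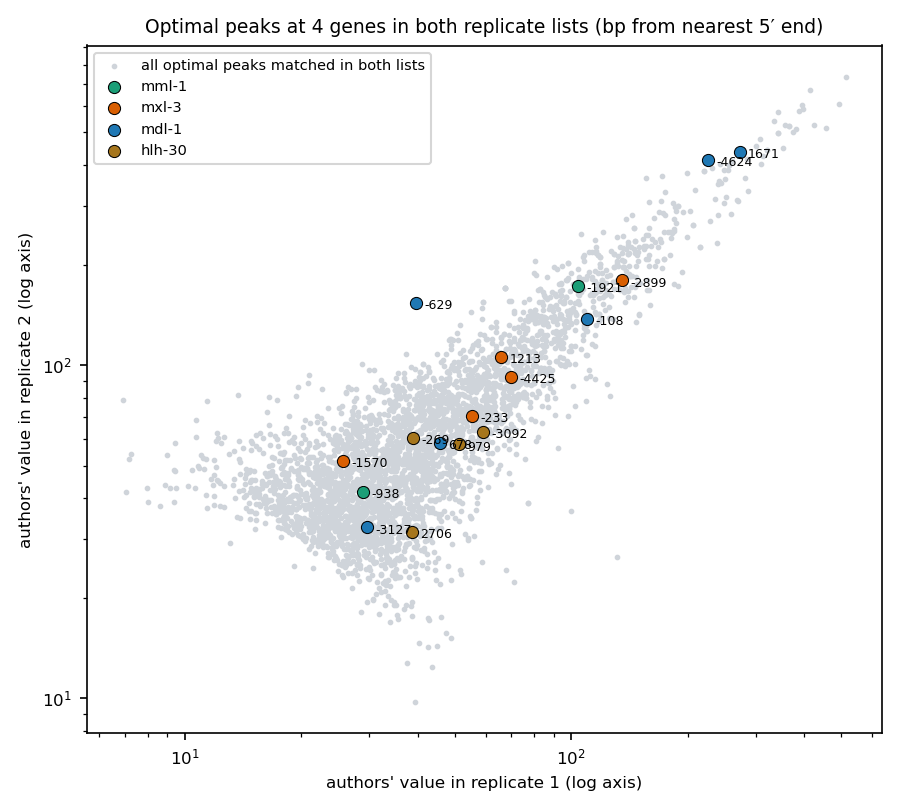
Authors' value in replicate 1 (x axis, log) against that in replicate 2 (y axis, log) for the 3636 optimal peaks matched in both replicates (grey) and for those at mml-1, mxl-3, mdl-1 and hlh-30 (coloured), each marked with its distance in bp from the nearest 5′ end of its gene. The mdl-1 peak at -629 bp, with 39.7 and 154, stands off the main cloud, and the others lie within it.

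The promoter windows of other genes with the most similar values in the replicates were found for each of the 4 genes, by the sum of the absolute log2 differences over the 2 replicates. For mml-1 (28.9 and 41.6) they were dpy-8, a cuticle collagen, at 28.8 and 41.3, and rps-5, a ribosomal protein, at 28.7 and 41. For mxl-3 (55.3 and 70.5) they were klp-13, a kinesin, at 55.5 and 70.7, and sdn-1, syndecan, at 55.4 and 71.9. For mdl-1 (110 and 138) they were F17E5.2, at 111 and 140, and a peak shared by fbxb-85 and hex-3, at 111 and 142. For hlh-30 (39 and 60.4) they were T08G5.3, at 39.4 and 60.8, and R102.6, at 39.9 and 59.9. The summed difference was between 0.009 and 0.044.

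The E-box was also looked for in the promoters themselves, in 1251 bp around the outermost 5′ end. It was present for mml-1, at -371 bp, for mxl-3, at -669 bp, and for mdl-1, at -657, -542 and -125 bp, against 19.1% of all protein-coding genes. The elements of mdl-1 at -657 and -542 bp lay in the optimal peak at -629 bp, and that at -125 bp in the peak at -108 bp. The elements of mml-1 and mxl-3 lay in pooled candidates below the threshold, at -236 bp (value 35.8) and -842 bp (value 41.9).

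The other genes of the pathway were read in the same promoter window, from lists of 34 other bHLH genes, 27 autophagy genes, 8 lysosomal lipase genes and 16 genes of the TOR pathway, AMPK and nuclear transport that act on HLH-30 or beside it. These lists were chosen with earlier results of these data known, so their shares are descriptions. Among autophagy genes, 11 of 27 had an optimal promoter summit (40.7%), against 11.6% of all protein-coding genes. The strongest were lgg-2, an Atg8 family protein of the autophagosome (value 416, rank 75, with 159 and 259 in replicates 1 and 2), and epg-7, a scaffold for aggregate autophagy (250, rank 275, with 97.5 and 146). The other Atg8 gene, lgg-1, had a value of 241 and rank 294, and epg-8, the Atg14 counterpart, had 130 and rank 948. The remaining 7 had values from 52.9 to 68.2, close to the threshold. Among the 3647 strongest intervals of replicate 2 alone, the count was 7 of 27. With the weaker 50% of optimal peaks left out it was 4. For these other settings the share of all protein-coding genes is not given here, so neither count is set against it.

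Genes of the TOR pathway and nuclear transport had an optimal promoter summit in 5 of 16 cases (31.2%), against 11.6% of all protein-coding genes. They were rheb-1, the GTPase that activates TOR (value 202, rank 429, with 74.7 and 122 in replicates 1 and 2), ife-2, an eIF4E (95.3), ran-1, the GTPase of nuclear transport (85.7), aak-2, an AMPK catalytic subunit (80.2), and rict-1, of TOR complex 2 (62.5), named after its value was seen. The peak of rict-1 ranked 10638 in replicate 1 and 2017 in replicate 2. The count was 8 with 2000 bp upstream and 2 with the weaker 50% of optimal peaks left out, again without a share of all genes beside it. Of the lysosomal lipase genes, 0 of 8 had an optimal promoter summit, against 11.6% of all protein-coding genes, which for a list this short is near 0 or 1 gene. Peaks lay farther upstream of lipl-2, at -1526 bp (value 360, rank 117), and of lipl-5, at -4354 bp (333, rank 136), both singled out after their values were seen.

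Other bHLH genes had an optimal promoter summit in 2 of 34 cases (5.88%), against 11.6% of all genes, a gap of few genes in a list this short. They were hlh-11 (value 232, rank 323, with 69.8 and 156 in replicates 1 and 2) and aha-1, the worm ARNT (96.7, rank 1560, with 32.6 and 64.6). In the wider window of gene body and 5 kb upstream, 7 of the 34 had an optimal summit (20.6%), close to the 23.6% of all genes. This came to 0.045 summits per kb of window, against 0.251 per kb for the 6 genes and 0.040 over all protein-coding genes. Strong distal peaks lay at hlh-27 (-3358 bp, value 664, rank 25) and hif-1 (-2009 bp, 308, rank 170), both singled out after their values were seen. These were as strong as the strongest peaks of mdl-1 (640) and mxl-3 (307). In the rest of the 7 the strongest values ran from 77.9 to 232.

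**Figure D4:**
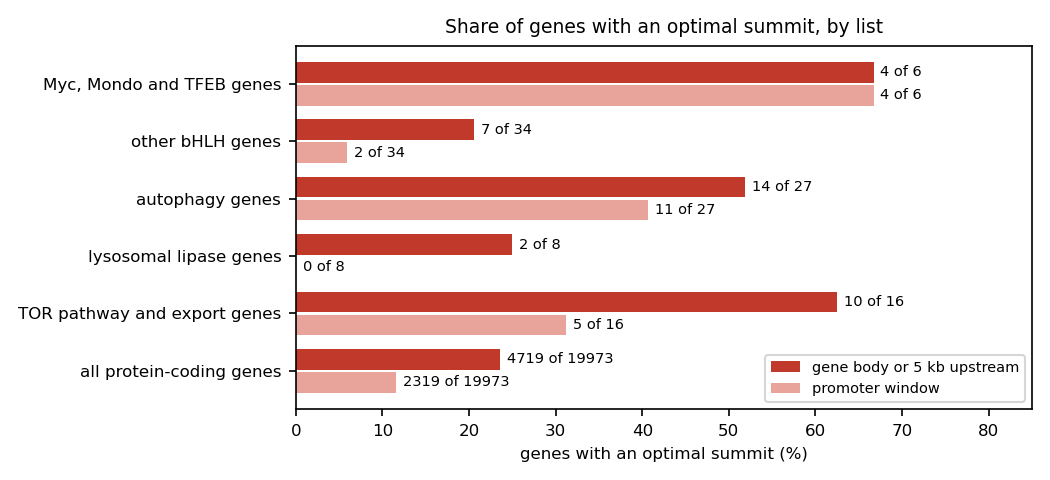
Share of genes (%) with an optimal summit in the gene body or 5 kb upstream (dark bars) and in the promoter window (light bars), for the 6 Myc, Mondo and TFEB genes, the 4 lists of related genes and all protein-coding genes, with counts beside the bars. The 6 genes had 4 of 6 in both windows, other bHLH genes 2 of 34 in promoters and autophagy genes 11 of 27.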

How the data were processed

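The deposited files were narrowPeak lists in ce11, whose coordinates are those of WBcel235. Per the text listing deposited beside them, intervals were called by the authors on ChIP alignments with a control alignment, per replicate and pooled. For the aligner, peak caller, settings and reproducibility threshold, no source used here gives a name or value. The signal value and the −log10 q-value of each interval are as deposited by the authors. The −log10 q was 4 for every optimal peak and did not rank them. Read totals are not in the lists, so the sequencing depth is unknown. Lists in ce10 were not used.

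Gene models came from Ensembl release 115 and sequence from the RefSeq genome of WBcel235. A summit in the gene body (outermost ends of all transcripts) or 5 kb upstream counted for a gene. Replicate intervals were matched by 1 bp of overlap, taking the strongest. Letters were read on both strands. Values were computed with Python 3.11.15 and pandas 2.3.3, and window assignment was tested on simulated data. The genes and lists were chosen with earlier results of these data known. The text names the 4 genes per list with the strongest optimal promoter summit, genes whose 5′ end is nearest to an optimal summit, and the 2 most similar promoter peaks per gene. No gene named epg-1 was found, which left 27 of 28 autophagy names. Alternatives covered window lengths, overlap, the nearest gene, peak strength, letters and leaving out each replicate. With a replicate left out, the 3647 strongest intervals of the other replicate's list stood in for the optimal peaks, with no reproducibility threshold.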

Additional observations from a re-analysis of the deposited data

How the results depend on the processing

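The count of the 6 genes with an optimal summit in the body or 5 kb upstream was 4 with every window length and with overlap of 1 bp. It was also 4 in the stronger 50% of the optimal peaks and with the nearest protein-coding 5′ end only. It ran from 4 to 5 when a replicate was left out. The gene added was mxl-2, through the replicate 2 interval whose summit lay at the ubc-20 5′ end. The promoter count ran from 3 to 5, losing mml-1 with 500 bp upstream and in the stronger 50%. The 15 summits became 9 with 1 kb upstream and 16 to 18 without a replicate. CACGTG was held by 7 of 15 intervals and CANNTG by 11, the second below its share of all optimal peaks (77%). Without a replicate, autophagy genes with a promoter summit numbered 7 to 10, other bHLH genes 2 to 3, TOR pathway genes 4 to 6 and lipase genes 0. In the stronger 50%, autophagy genes numbered 4 and TOR pathway genes 2. With a 2000 bp window, TOR pathway genes numbered 8 and lipase genes 1. Shares of all protein-coding genes under these alternative settings are not given here. The gene counts therefore show how each list changed, not how it stood against all genes. By construction, shorter windows and fewer peaks hold fewer summits. The order of the genes under other windows, tried after seeing the data, is given with the order itself. The cause of the other shifts was not tested. No paired analysis was possible because there is 1 group. Depth is unknown, so a missing peak at mxl-1 or mxl-2 is not shown to be absent binding.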
